A study of Mus musculus with 6 samples.

Results

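The osteoprotegerin, RANKL and CSF1 axis was described here through 7 genes: Tnfrsf11b (osteoprotegerin), Tnfsf11 (RANKL), Tnfrsf11a (RANK), Csf1, Csf1r, Ctsk (cathepsin K) and Acp5 (tartrate-resistant acid phosphatase, TRAP). They were taken by symbol, and all 7 were among the 24411 genes of the table. Of these, 6 passed the filter on low counts and Tnfsf11 did not. The set was chosen by function and with the fold changes between the genotypes in view, so values in that contrast are a description and carry no test.

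RANKL is the ligand that drives myeloid precursors bearing the receptor RANK to become osteoclasts, the cells that resorb bone. Osteoprotegerin is a secreted decoy receptor that binds RANKL and keeps it from RANK. CSF1, made by fibroblasts and other stromal cells, acts through the receptor CSF1R to sustain monocytes, macrophages and osteoclast precursors. Cathepsin K, a collagen-degrading protease, and TRAP are abundant in osteoclasts, but connective tissue fibroblasts also make cathepsin K and macrophages can also make TRAP.

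The tissue was Achilles tendon from 18-week-old C57BL/6 mice, with 3 libraries from wild-type (WT) mice and 3 from mice labelled Scx-Cre/Piezo1 GOF. Scx-Cre is a recombinase under regulatory sequence of Scx, a transcription factor gene of tendon cells, and GOF stands for gain of function. Piezo1 is a cation channel opened by mechanical force. The labels name no Cre or other allele for WT, and they do not say that the libraries came from separate animals, so the spread between libraries may be technical. The GenNext RamDA-seq kit was used on total RNA.

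Total counts per library lay between 8131527 and 17180856. Levels are counts scaled to a common library size (CPM), and log2 fold changes set Piezo1 GOF over WT. Piezo1 itself was at 103 to 144 CPM in WT and 128 to 178 CPM in Piezo1 GOF (0.34 ± 0.23, SE; edgeR adjusted p = 0.442), which checks no label, since an activating allele need not alter transcript level. Marker lists of several cell types moved with the genotype. The summed CPM of 12 tenocyte markers was 5277 to 15357 in WT and 29702 to 51742 in Piezo1 GOF, that of 15 macrophage markers 175 to 252 and 640 to 764, and that of 15 skeletal muscle markers 41473 to 73170 and 11203 to 37019. The sum of 12 osteoblast and osteocyte markers was 93.3 to 410 CPM in WT and 1721 to 3232 CPM in Piezo1 GOF. That of 9 cartilage markers was 535 to 3658 and 7383 to 21242 CPM, most of it from Chad (chondroadherin), and that of 7 neutrophil markers 5.66 to 16 and 50.7 to 122 CPM. Nearly all of the neutrophil sum came from Lcn2, at 5.32 to 15.6 CPM in WT and 45.9 to 119 CPM in Piezo1 GOF. The other 6 neutrophil markers stayed under 5 CPM in all libraries. WT replicate 2 had the highest muscle and the lowest tenocyte sum. Nearly all of the tenocyte sum came from matrix genes that were themselves higher in Piezo1 GOF. Among them were Dcn, at 1569 to 2891 and 7117 to 16510 CPM, and Col1a1, at 117 to 1894 and 3821 to 4708 CPM. Scx was at 14.2 to 17.2 and 45.1 to 77.9 CPM. Ratios to this sum are therefore mostly ratios to matrix transcripts. In bulk tissue, more cells of a type and more RNA per cell cannot be told apart.

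The decoy receptor had the largest fold difference between the genotypes of the 6 tested axis genes, while Csf1r, Csf1 and Ctsk differed by more in CPM. Tnfrsf11b was at 12.4, 4.98 and 12.1 CPM in WT replicates 1 to 3 and at 62.4, 48.6 and 35.5 CPM in Piezo1 GOF replicates 1 to 3. Every mutant library lay above every WT library, and the lowest mutant value was well above the highest WT value. The means were 9.81 ± 4.19 and 48.8 ± 13.5 CPM (SD, n = 3 each), a 5.01-fold difference, or 2.33 ± 0.38 on the log2 scale (SE). Of the 13466 genes tested, 0.750% had a higher fold change. Set against the summed CPM of the tenocyte markers of the same library, Tnfrsf11b had log2 ratios of -10.3, -10.0 and -9.87 in WT and -8.89, -10.1 and -9.87 in Piezo1 GOF. On that scale the groups overlap and the means differ by 0.46, with Piezo1 GOF replicate 1 alone above all WT libraries. Against the macrophage markers the groups overlap as well, and the means differ by 0.74. The summed osteoblast and cartilage markers did not overlap between the genotypes, nor did the neutrophil sum, which was mostly Lcn2. The part of these cell types in the Tnfrsf11b value was not tested. The gene lies on the minus strand at chr15:54250619-54278484 (mm10) and has 1 annotated transcript (ENSMUSG00000063727.3).

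Its ligand was near the limit of detection in both genotypes. Tnfsf11 had 0 counts in all 3 WT libraries and in Piezo1 GOF replicate 1, and 4 and 3 counts in Piezo1 GOF replicates 2 and 3. A count of 0 allows up to 0.192 to 0.339 CPM in the WT libraries and up to 0.390 CPM in Piezo1 GOF replicate 1, where each limit stands for 3 counts and covers counting error only. The mutant values of 0.401 and 0.222 CPM are of the same order as these limits, so a difference in RANKL was not detectable at this depth. T cells are another known source of RANKL, and the summed level of 6 T cell markers was 0.511 to 3.17 CPM in WT and 0.520 to 2.11 CPM in Piezo1 GOF.

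Within every library, osteoprotegerin counts far outnumbered RANKL counts. Against the limit of 3 counts per library, Tnfrsf11b was at least 38.3-fold, 26.0-fold and 35.7-fold higher than Tnfsf11 in WT replicates 1 to 3, and at least 160-fold higher in Piezo1 GOF replicate 1. In Piezo1 GOF replicates 2 and 3, where RANKL was counted, the ratio was 121 (exact 95% interval 47.0 to 446) and 160 (54.3 to 777). These are ratios of counts. The exons of the 2 genes cover 2818 and 2236 bases, so length accounts for little of them. Because 4 of the 6 ratios are bounds, no fold between the genotypes is given for the ratio itself.

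RANK, the receptor that osteoprotegerin shields, had overlapping levels in the genotypes. Tnfrsf11a was at 12.8, 5.56 and 4.98 CPM in WT and at 7.80, 5.42 and 8.97 CPM in Piezo1 GOF. All mutant values fell inside the WT range, and WT replicate 1 was the highest of the 6. The log2 fold change was -0.07 ± 0.43 (SE), with 0.51 when WT replicate 1 was left out and -0.30 when WT replicate 3 was. The log2 ratio of Tnfrsf11b to Tnfrsf11a within a library was -0.05, -0.16 and 1.28 in WT and 3, 3.16 and 1.99 in Piezo1 GOF, with no overlap. Tnfrsf11a lies at chr1:105780718-105847981 on the plus strand.

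**Figure D1:**
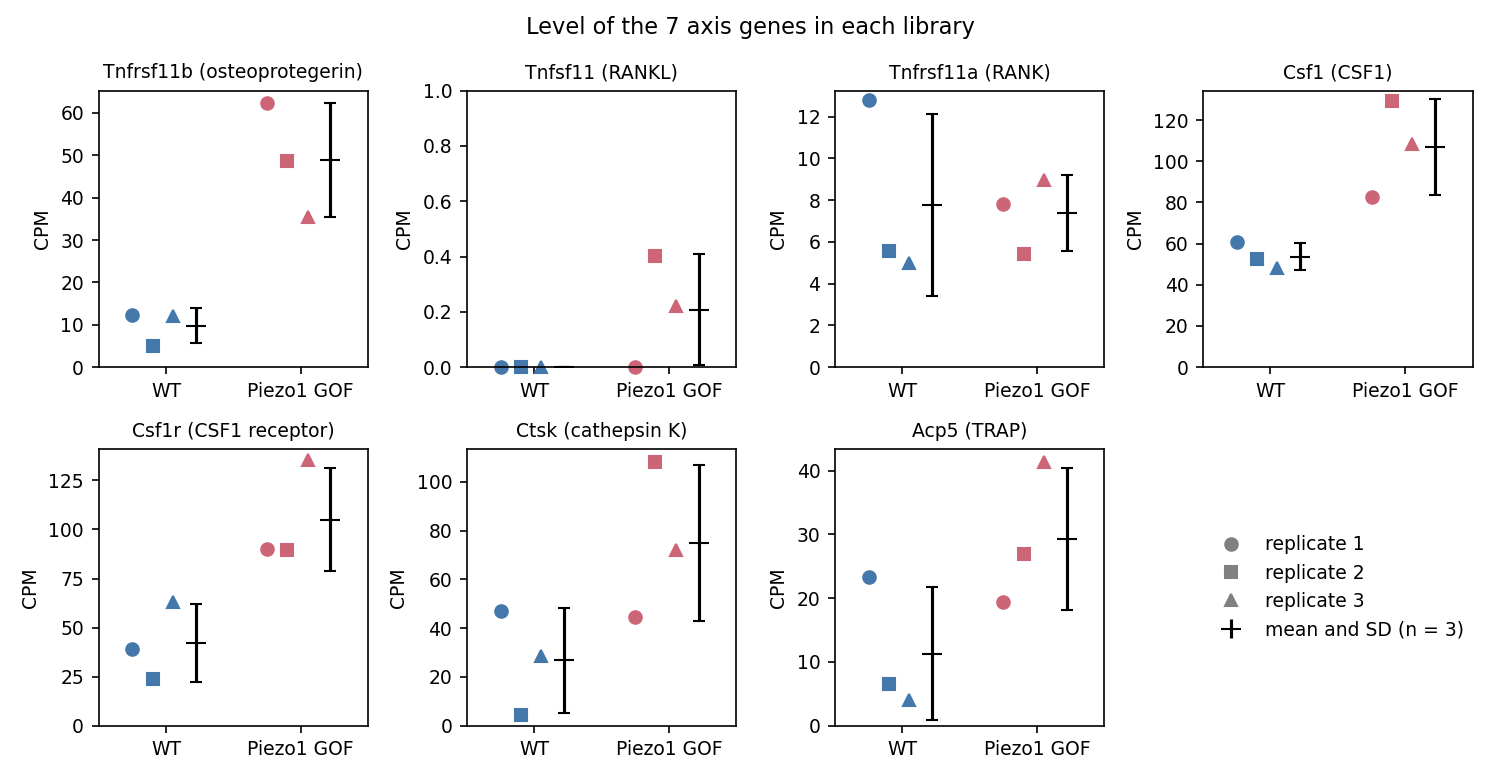
Level of each of the 7 axis genes in CPM (y axis, linear from 0) in WT and Piezo1 GOF tendon, 1 point per library with its shape giving the replicate number, and bars for mean and SD (n = 3). The groups of Tnfrsf11b, Csf1 and Csf1r do not overlap, those of Tnfrsf11a, Ctsk and Acp5 do, and Tnfsf11 stays under 1 CPM in all 6 libraries.

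Both ligands of the axis are made by stromal cells, and their promoters are shown because one was among the well expressed axis genes and the other was almost uncounted. RefSeq promoters (GRCm38.p6, from 250 bases before to 50 after the start site) were found for 5 of the 7 symbols. The Csf1 window is chr3:107760420-107760719 and the Tnfsf11 window chr14:78307994-78308293, both on the minus strand. Capitals mark matches on either strand to 6 motifs. The GC box, bound by factors of the Sp family, was searched as GGGCGG. The TATA box, which positions the start of transcription, was searched as TATAAA. The sites of AP-1, the RUNX family, the TEAD partners of YAP and the myeloid factor PU.1 were searched as well. AP-1 was spelled TGANTCA, where N is any base. For the RUNX family, which includes the osteoblast factor Runx2, the letters were TGTGGT. For the TEAD factors of the Hippo pathway the letters were GGAATG. For PU.1, the factor that Spi1 encodes, they were GAGGAAGT.
Csf1: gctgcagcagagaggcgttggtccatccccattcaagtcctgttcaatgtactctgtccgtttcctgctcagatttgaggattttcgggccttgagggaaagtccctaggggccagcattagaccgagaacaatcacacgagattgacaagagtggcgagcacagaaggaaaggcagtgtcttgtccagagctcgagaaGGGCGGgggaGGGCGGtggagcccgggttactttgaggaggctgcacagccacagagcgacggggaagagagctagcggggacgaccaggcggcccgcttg
Tnfsf11: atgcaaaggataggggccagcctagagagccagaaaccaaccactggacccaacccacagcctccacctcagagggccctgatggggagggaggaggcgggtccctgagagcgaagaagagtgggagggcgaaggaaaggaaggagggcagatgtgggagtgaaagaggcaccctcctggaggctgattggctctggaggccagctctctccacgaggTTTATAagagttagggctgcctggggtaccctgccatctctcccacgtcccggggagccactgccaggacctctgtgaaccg
The Csf1 window held 2 GC boxes, 51 and 41 bases before the start site, and 16 CpG pairs. The Tnfsf11 window held 1 TATA box in reverse orientation, 32 bases before the start site, and 7 CpG pairs. Among 32817 promoter windows of this length, 35.6% held the GC box and 13.6% the TATA box. The median over these windows was 7 CpG pairs, the same as in the Tnfsf11 window. The other motifs had no match in these 2 windows and occurred in 3.2% (PU.1), 7.81% (AP-1), 14.7% (TEAD) and 16.8% (RUNX) of all windows. A match is a run of letters and not a shown binding site.

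The CSF1 ligand and its receptor both had higher CPM in every mutant library than in any WT library. Csf1 was at 60.8, 52.5 and 48.0 CPM in WT and at 82.8, 129.5 and 108 CPM in Piezo1 GOF. The groups did not overlap, and the spread within WT was small. The means of 53.8 ± 6.50 and 106.9 ± 23.4 CPM (SD, n = 3 each) differ 1.99-fold (0.99 ± 0.23 on the log2 scale, SE). The value lay between 0.85 and 1.14 with any 1 library left out, the narrowest range of the 6 genes. Relative to the tenocyte markers of the same library the order was the other way, with log2 ratios of -7.98, -6.65 and -7.88 in WT and -8.49, -8.64 and -8.26 in Piezo1 GOF. These groups did not overlap, and the mutant mean was lower, with a difference of -0.96. Against the macrophage markers the groups overlap, with a difference of -0.68. Csf1 lies at chr3:107741048-107760469.

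Csf1r was at 39.3, 23.6 and 63.1 CPM in WT and at 90.0, 89.8 and 135 CPM in Piezo1 GOF. Again the groups did not overlap, with WT replicate 3 nearest to the mutant libraries. The means were 42.0 ± 19.9 and 105 ± 26.3 CPM (SD, n = 3 each), a 2.51-fold difference (1.33 ± 0.36, SE), which lay between 1.03 without WT replicate 2 and 1.74 without WT replicate 3. Csf1r spans chr18:61100598-61132149, and its end overlaps Hmgxb3 on the opposite strand, so reads of the pair may be shared if strand was not used in counting.

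Other macrophage genes were also higher in the mutant libraries. Set against the summed CPM of the 15 macrophage markers of the same library, Csf1r had a log2 ratio of -2.60, -2.89 and -2.00 in WT and -2.83, -2.90 and -2.50 in Piezo1 GOF. These groups overlap, and their means differ by -0.24. The most abundant of these markers was the lysozyme gene Lyz2, with a log2 fold change of 1.73 ± 0.23 (edgeR adjusted p = 0.0572). The general macrophage marker Adgre1 was at 7.20, 5.05 and 7.35 CPM in WT and 16.8, 18.0 and 23.7 CPM in Piezo1 GOF (1.58 ± 0.28; edgeR adjusted p = 0.0572), and Cd68 had a log2 fold change of 1.24 ± 0.34 (0.142). The part of macrophage RNA in the Csf1r value was not tested beyond this ratio. The log2 ratio of Csf1 to Csf1r was 0.63, 1.16 and -0.40 in WT and -0.12, 0.53 and -0.32 in Piezo1 GOF, so ligand and receptor kept overlapping proportions.

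The 2 osteoclast enzymes had higher means in the mutant but overlapping groups. Ctsk was at 47.3, 4.47 and 28.7 CPM in WT and at 44.5, 108 and 71.9 CPM in Piezo1 GOF. WT replicate 2 was about an order of magnitude below WT replicate 1, and Piezo1 GOF replicate 1 lay under WT replicate 1. The means were 26.8 ± 21.5 and 74.9 ± 32.04 CPM (SD, n = 3 each), with a log2 fold change of 1.49 ± 0.68 (SE). Leaving out WT replicate 2 gave 0.98, and leaving out WT replicate 1 gave 2.22. Relative to the summed CPM of the 12 tenocyte markers, Ctsk had log2 ratios of -8.34, -10.2 and -8.62 in WT and -9.38, -8.90 and -8.85 in Piezo1 GOF. On that scale the genotype means differ by 0.01. Ctsk lies at chr3:95499256-95509362 on the plus strand.

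Acp5 was at 23.3, 6.51 and 4.07 CPM in WT and at 19.4, 27.0 and 41.4 CPM in Piezo1 GOF. WT replicate 1 alone lay among the mutant values, and the other two WT libraries were below all of them. The means were 11.3 ± 10.5 and 29.2 ± 11.2 CPM (SD, n = 3 each), with a log2 fold change of 1.38 ± 0.59 (SE). Without WT replicate 1 it was 2.47 ± 0.41, and without WT replicate 3 it was 0.98 ± 0.55. Against the macrophage markers, the log2 ratio of Acp5 was -3.36, -4.75 and -5.95 in WT and -5.04, -4.63 and -4.21 in Piezo1 GOF, and the means differ by 0.06. Acp5 lies at chr9:22126727-22135711 on the minus strand, inside the span of the noncoding gene 6530413G14Rik on the plus strand.

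**Figure D2:**
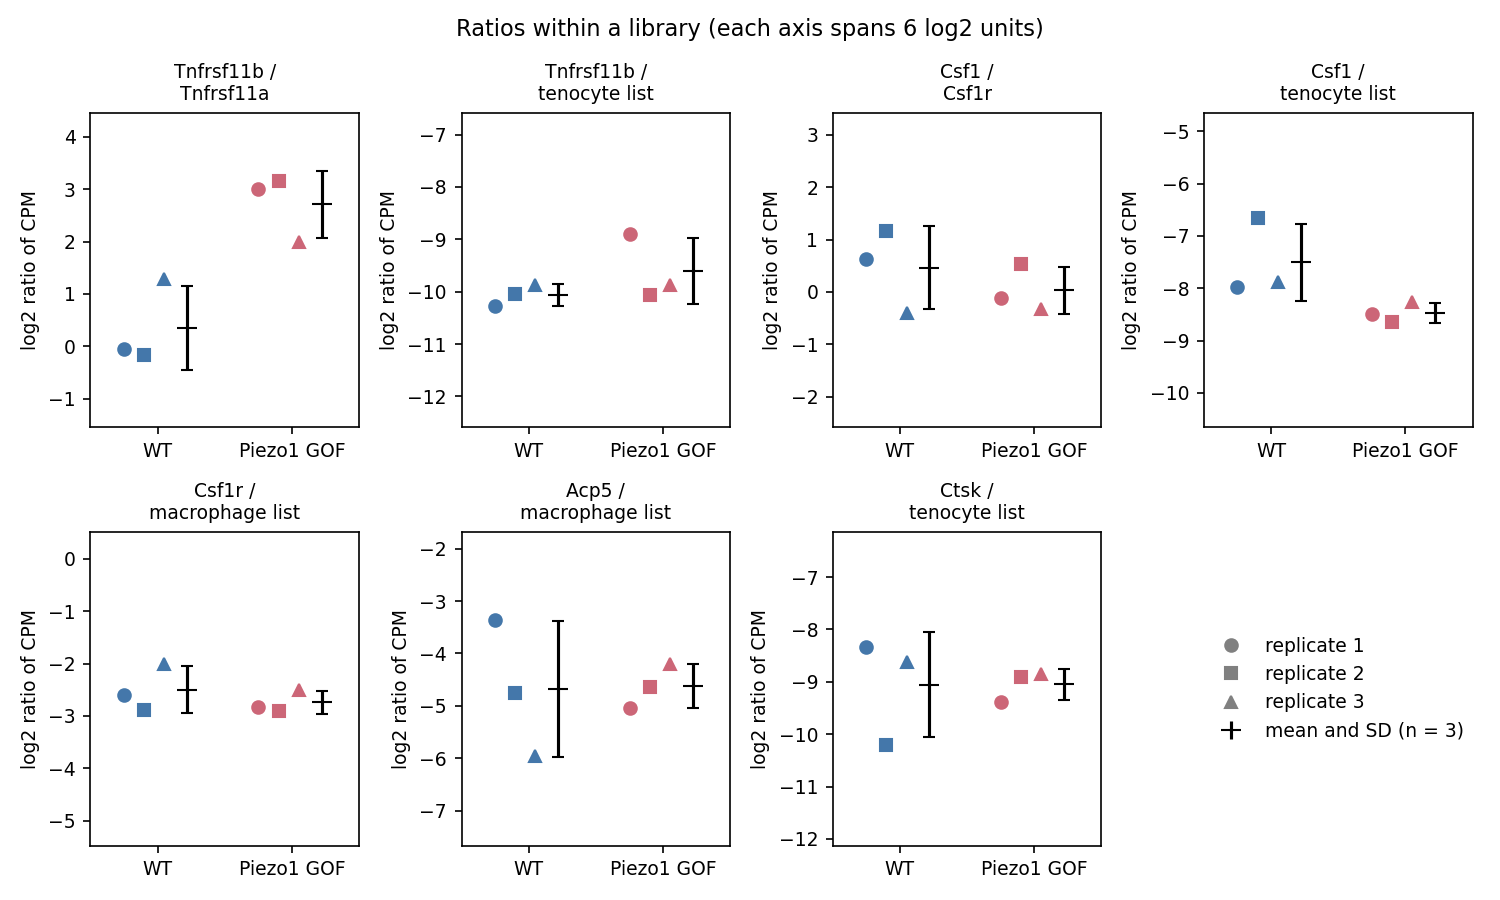
Log2 ratios of CPM within a library (y axes, each spanning the same range) for Tnfrsf11b over Tnfrsf11a, Csf1 over Csf1r, Csf1r and Acp5 over the summed macrophage list, and Tnfrsf11b, Csf1 and Ctsk over the summed tenocyte list, 1 point per library with mean and SD (n = 3). Of these panels, the groups do not overlap for Tnfrsf11b over Tnfrsf11a (mutant higher, at least 1.99 against at most 1.28) and for Csf1 over the tenocyte list (mutant lower, at most -8.26 against at least -7.98), while Tnfrsf11b over the tenocyte list overlaps.

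By edgeR's quasi-likelihood test, 0 of the 6 axis genes passed an adjusted p of 0.05 over all genes, where 2 of 13466 genes did (0.0149%). The adjusted p was 0.0572 for Tnfrsf11b, 0.109 for Csf1, 0.136 for Csf1r, 0.243 for Acp5, 0.264 for Ctsk and 0.948 for Tnfrsf11a. At an unadjusted p under 0.05, 4 were higher (Tnfrsf11b, Csf1, Csf1r and Acp5), against 10.2% of all genes. The groups did not overlap, with the mutant higher, for 3, against 13.6% of all genes. DESeq2 called Tnfrsf11b, Csf1 and Csf1r (5.98% of the genes it tested) and limma voom called Tnfrsf11b (0.861%). Nothing is read from these counts, since this contrast was in view when the genes were chosen. Without WT replicate 1, edgeR called Tnfrsf11b (adjusted p = 0.0413) and Acp5 (0.0385), where 1.65% of genes passed.

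**Figure D3:**
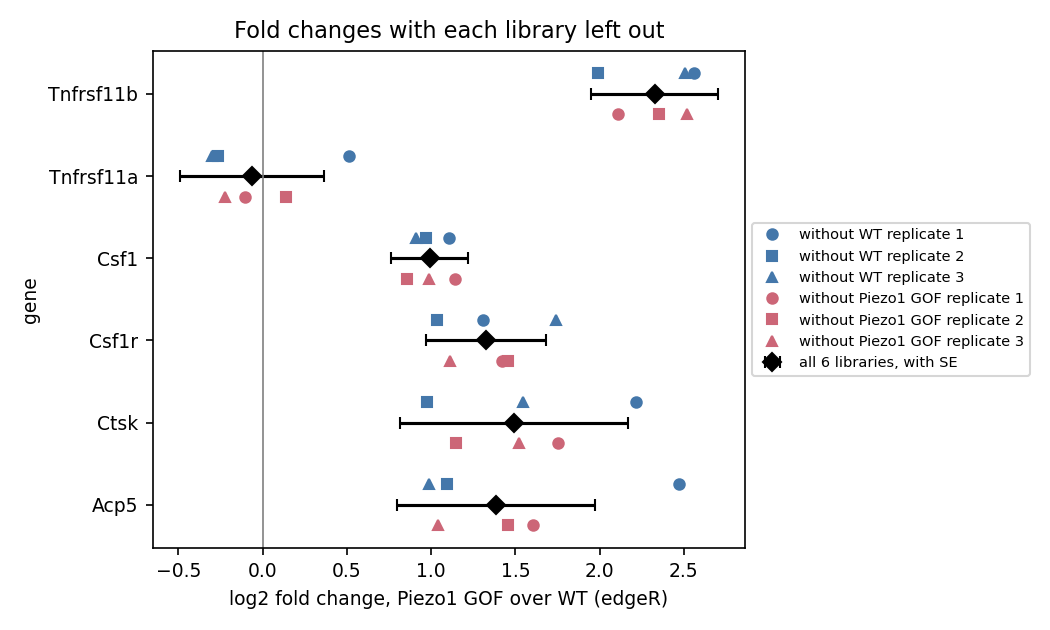
Log2 fold change of the 6 tested axis genes, Piezo1 GOF over WT (x axis, edgeR), from all 6 libraries with its SE (black) and with each library left out (blue for WT, red for Piezo1 GOF, shape for the replicate). Tnfrsf11b stays between 1.99 and 2.56 and Csf1 between 0.85 and 1.14, while Acp5 moves from 0.98 to 2.47 and Tnfrsf11a falls on both sides of 0.

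Per kilobase of exon, which allows genes to be compared, the order of mean levels in WT was Ctsk (17.7 ± 14.2 CPM per kb), Csf1 (10.2 ± 1.23), Csf1r (7.27 ± 3.45), Acp5 (5.57 ± 5.16), Tnfrsf11b (3.48 ± 1.49), Tnfrsf11a (1.30 ± 0.73) and Tnfsf11 (0 counts; SD, n = 3). Every pair of neighbours down to Tnfrsf11a had overlapping ranges, so that order is loose. In Piezo1 GOF, Ctsk led with 49.5 ± 21.2 CPM per kb and its range lay above that of Csf1 (20.2 ± 4.43). Csf1r (18.2 ± 4.55), Tnfrsf11b (17.3 ± 4.77) and Acp5 (14.4 ± 5.50) followed with overlapping ranges. Tnfrsf11a at 1.24 ± 0.30 and Tnfsf11 at 0.093 ± 0.090 CPM per kb lay below all of these without overlap.

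**Figure D4:**
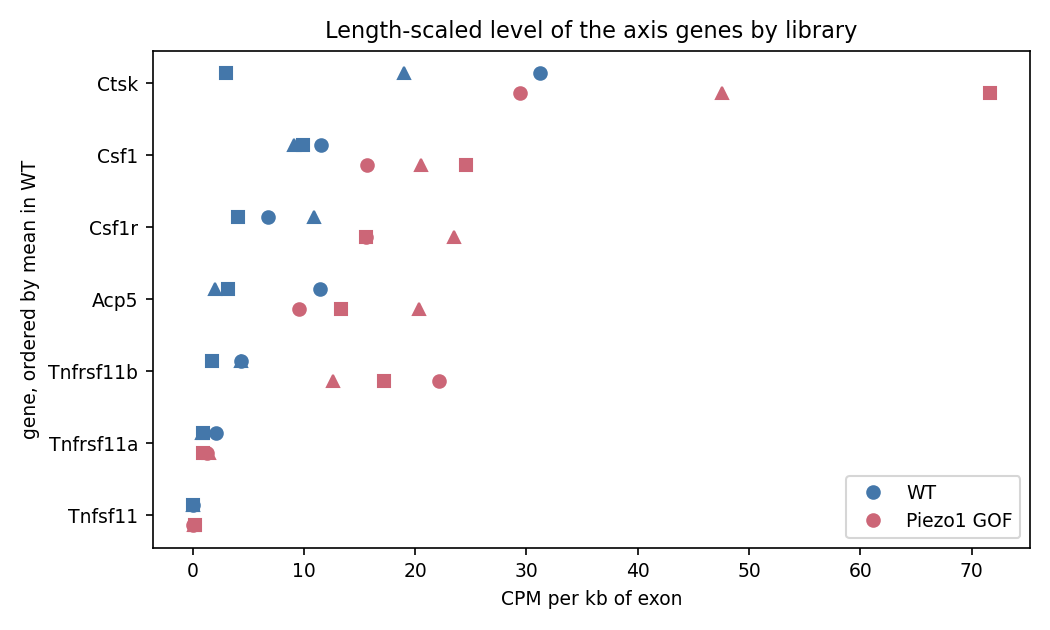
CPM per kb of exon (x axis, linear) for each axis gene, ordered by the WT mean, with 1 point per library (blue WT, red Piezo1 GOF, with circle, square and triangle for replicates 1 to 3). Ctsk is spread from 2.96 to 31.3 in WT, and Tnfrsf11a and Tnfsf11 stay under 2.14 in all 6 libraries.

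Of the osteoclast markers, 7 were near 0 in both genotypes. Itgb3, Acp5 and Ctsk are osteoclast markers too but were left out of the sum that follows. Itgb3 was at 10.4 to 16.2 CPM in WT and 6.92 to 12.4 CPM in Piezo1 GOF, and the levels of Acp5 and Ctsk are given above. The fusion genes Dcstamp and Ocstamp, the proton pump subunit Atp6v0d2, the calcitonin receptor Calcr, the receptors Oscar and Siglec15 and the protease Mmp9 summed to 1.61, 1.41 and 2.38 CPM in WT and to 1.82, 1.30 and 6.45 CPM in Piezo1 GOF. None of the 7 reached 5 CPM in any library, and Siglec15 had 0 counts in all 6. The highest value was that of Dcstamp, at 3.34 CPM in Piezo1 GOF replicate 3, against 0 and 0.702 CPM in the other two mutant libraries and at most 0.107 CPM in WT. Of 12 osteoblast and osteocyte markers 7 were tested, with a median log2 fold change of 1.48 and 0 past the threshold. Of the 7, 5 had groups without overlap and the mutant higher (against 13.6% of all genes). These 5 include Sp7, at 0.192 to 0.566 CPM in WT and at most 2.37 CPM in Piezo1 GOF. Sp7 passed the filter on low counts only through the mutant libraries, so its place among the 5 is not read as a result. Phex had the 1 negative value of the 7 (-1.85 ± 1.39; edgeR adjusted p = 0.478), with low and overlapping levels. Ibsp (bone sialoprotein) was at 19.0 to 178 CPM in WT and 446 to 1736 CPM in Piezo1 GOF (3.52 ± 0.81; edgeR adjusted p = 0.108). Spp1 (osteopontin) was at 52.5 to 201 and 850 to 1433 CPM (3.14 ± 0.51, 0.0572). The phosphatase Alpl was at 7.92 to 14.2 and 29.2 to 31.3 CPM (1.48 ± 0.26, 0.0572), and the osteoblast factor Runx2 at 9.13 to 11.5 and 15.7 to 22.8 CPM (0.84 ± 0.25, 0.162). The other 8 of the 12, Bglap and Sost among them, stayed under 5 CPM in all 6 libraries.

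The wider pathway was followed in 7 lists with 88 genes, of which 74 were tested. By edgeR, 0 of the 74 passed over all genes. At an unadjusted p under 0.05, 19 were higher (25.7%, against 10.2% of all genes) and 3 lower (against 9.59%), and DESeq2 called 13 (against 5.98% of the genes it tested) and limma voom 2 (against 0.861%). The median log2 fold change was 0.25, against -0.0045 over all 13466 genes. The lists were chosen with earlier results of these data known. Btk, Spi1 and Lilrb4a, which are among the 19, passed the filter on low counts only with the help of the mutant libraries. Nothing is therefore read from these counts or the median. The part of macrophage, tenocyte, bone, cartilage and muscle RNA in these values was not tested. The lists differed, as follows.

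Signalling genes downstream of RANK had a median log2 fold change near 0, with values spread to both sides. Of 18, 0 passed, 14 had positive and 4 negative values, and the median was 0.21. The lowest was Map3k7 (-0.60 ± 0.34; edgeR adjusted p = 0.349), whose groups overlap. In 4 of the 18 the groups did not overlap with the mutant higher (against 13.6% of all genes), and in 0 with it lower. These 4 were Nfkb1 (0.51 ± 0.22, 0.253), Relb (0.36 ± 0.22, 0.380), Btk and Spi1. Plcg2, whose groups overlap, had a value of 0.81 ± 0.44 (0.329). The adaptor Traf6 had a log2 fold change of 0.25 ± 0.22 (edgeR adjusted p = 0.540) and the osteoclast master factor Nfatc1, at 90 to 127 CPM in WT and 110 to 142 CPM in Piezo1 GOF, one of 0.21 ± 0.22 (0.616). The highest values were those of the myeloid genes Btk (2.10 ± 0.67, 0.171) and Spi1, which encodes PU.1 (1.25 ± 0.52, 0.238). Both were low, Spi1 at 0.958 to 3.17 CPM in WT and 4.11 to 6.37 CPM in Piezo1 GOF. Btk was at 0.192 to 0.905 CPM in WT and 1.81 to 2.97 CPM in Piezo1 GOF. Btk passed the filter on low counts only through the mutant libraries, and Spi1 only with their help. The places of both in the list are therefore not read as results.

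The co-receptors and adaptors that act beside RANK on myeloid cells had the highest median of the pathway lists. It was 1.86 over the 4 of 8 that were tested, which include the inhibitory receptor Pirb. All 4 had groups without overlap and the mutant higher (against 13.6% of all genes), and 0 passed. The adaptor Tyrobp (DAP12) was at 6.87, 2.49 and 3.17 CPM in WT and 9.10, 22.0 and 20.2 CPM in Piezo1 GOF (2.05 ± 0.48; edgeR adjusted p = 0.110). The adaptor Fcer1g had a log2 fold change of 1.95 ± 0.39 (0.0926), Trem2 of 1.48 ± 0.43 (0.152) and the inhibitory receptor Pirb of 1.78 ± 0.29 (0.0572). Macrophages express these genes too, and the 15 macrophage markers had a median of 1.73. Among 9 repressors of osteoclast formation and their regulators the median was 0.12. Of these, Irf8 had a log2 fold change of 0.92 ± 0.32 (0.191), Traf3 one of -0.85 ± 0.35 (0.228) and Cyld one of -0.47 ± 0.22 (0.274). The inhibitory receptor Lilrb4a had the highest value (2.94 ± 0.67, 0.108), at 1.02 to 5.32 CPM in WT and 11.8 to 46.4 CPM in Piezo1 GOF. It passed the filter on low counts only with the help of the mutant libraries, so its place is not read as a result.

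Genes of acid secretion and resorption were also close to 0 as a list. Of 13, 0 passed, 7 had positive and 6 negative values, with a median of 0.19. The proton pump subunit Tcirg1 was at 36.5 to 50.8 CPM in WT and 58.9 to 69.1 CPM in Piezo1 GOF (0.56 ± 0.21; edgeR adjusted p = 0.197). Of other proton pump genes, Atp6v1a had a log2 fold change of 0.65 ± 0.22 (0.185) and Atp6ap1 of 0.35 ± 0.21 (0.366). Atp6v1b2, whose groups overlap, had one of -0.18 ± 0.19 (0.637), and the chloride channel Clcn7 one of -0.02 ± 0.20 (0.960). Carbonic anhydrase 2 (Car2) was the lowest, at -1.31 ± 0.38 (0.153). Among the fusion and adhesion genes, Sirpa (0.75 ± 0.21, 0.142) and its ligand Cd47 (0.62 ± 0.21, 0.187) had positive values, and the integrin Itgb3 one of -0.29 ± 0.32 (0.627). Cd9, whose groups overlap, had the highest value of that list (1.26 ± 0.54, 0.244).

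The second ligand of CSF1R and the second ligand of osteoprotegerin had overlapping groups. Il34 was at 18.9, 17.9 and 14.2 CPM in WT and 9.10, 17.1 and 22.0 CPM in Piezo1 GOF (-0.08 ± 0.33; edgeR adjusted p = 0.916). Tnfsf10 (TRAIL), which osteoprotegerin also binds, was at 29.0, 18.2 and 22.9 CPM in WT and 9.36, 26.1 and 22.7 CPM in Piezo1 GOF (-0.26 ± 0.37, 0.718). Whether these fold changes differ from those of Csf1 and Tnfrsf11b was not tested. The GM-CSF receptor chain Csf2ra had a log2 fold change of 1.64 ± 0.37 (0.106), the RANKL receptor Lgr4 of -0.54 ± 0.20 (0.200) and the syndecan Sdc1, a heparan sulphate proteoglycan, of 1.61 ± 0.57 (0.188). For Tnfrsf10b the log2 fold change was 0.51 ± 0.38 (0.482).

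Stromal regulators of the axis were split, with 8 positive and 8 negative values among 16 and a median of 0.07, and 0 passed by edgeR. Sema3a, a semaphorin that protects bone, was at 23.6, 24.5 and 28.4 CPM in WT and at 59.2, 126 and 70.7 CPM in Piezo1 GOF. Every mutant library lay above WT (1.74 ± 0.30; edgeR adjusted p = 0.0572). The parathyroid hormone receptor Pth1r had a log2 fold change of 1.75 ± 0.45 (0.127), Tgfb1 of 1.52 ± 0.30 (0.0877) and Bmp2 of 1.17 ± 0.34 (0.151).

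**Figure D5:**
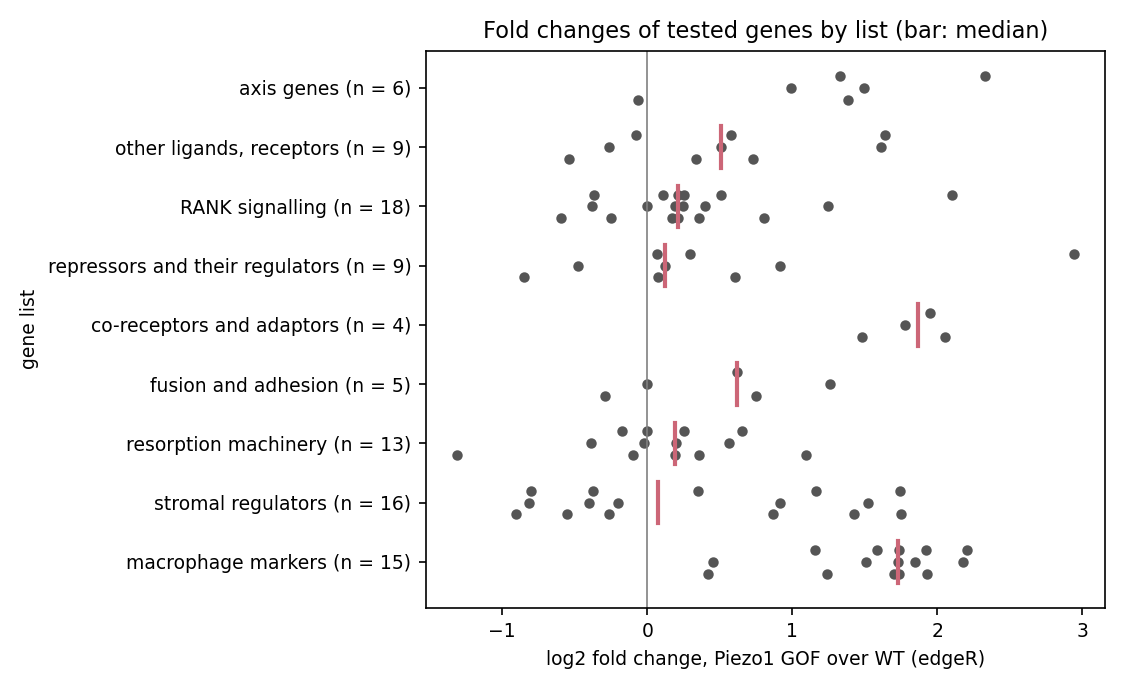
Log2 fold change, Piezo1 GOF over WT (x axis, edgeR), of the tested genes of the axis, of the 7 pathway lists and of the macrophage markers, 1 point per gene and a red bar for each list's median except that of the axis genes. The co-receptor list (median 1.86) and the macrophage list (1.73) lie to the right, and RANK signalling (0.21) and resorption machinery (0.19) near 0.

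The genes with profiles most like those of the axis genes were found by the root mean square difference of centred log2 CPM over the 6 libraries, among about 8872 genes. This is a description and genotype contributes to it. For Tnfrsf11b they were Slc1a4, an amino acid transporter (0.18), the collagen-binding integrin Itga2 (0.25) and the matrix gene Comp (0.28), against a spread of Tnfrsf11b itself of 1.28. For Csf1 they were Prelp, Fcgrt and Eef1a1 (0.10 to 0.13), and for Csf1r Pstpip1, Nckap1l and Cx3cl1 (0.16 to 0.24). Ctsk was nearest to Il33, Col2a1 and Nrep (0.25 to 0.29), Acp5 to Sncg, C4b and Rbp4 (0.27 to 0.29), and Tnfrsf11a to Enpp5, Pdia5 and Actn4 (0.11 each). No neighbour was shared between 2 axis genes.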

How the data were processed

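The authors deposited 1 table of expected counts, one estimated count for each gene and library with no scaling, made per the submitters' processing notes with bcl2fastq, STAR, RSEM and edgeR (no versions) on the build mm10. Annotation, strand setting and batch were not given in the sources used here. Between 7.80% and 8.88% of deposited values per library were not whole, and all were rounded. Genes were filtered with filterByExpr (minimum count 10), library sizes were scaled by TMM, and the genotypes were compared by the quasi-likelihood test of edgeR (two-sided) with Benjamini-Hochberg adjustment over 13466 genes and a threshold of 0.05. The common dispersion was 0.113. CPM use the TMM-scaled library size. No library was a copy of another (chi-square of 41.6 to 143 per degree of freedom within a genotype). A test on simulated data for this comparison, with 13466 genes of which 50 were changed by each fold size, recovered 8% at 2-fold, 72% at 4-fold and 92% at 8-fold, and it made 13 false calls.

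The 7 genes and the gene lists were chosen with earlier results of these data known. Other genes were named by a rule: the 4 with the smallest unadjusted p in each pathway list, a fixed set of osteoclast and macrophage genes, and for likeness the 3 genes of at least 10 CPM with the smallest root mean square difference of centred log2 CPM (prior count 2). Further list members, given for their levels, and the genes of the closing section were chosen after their values were seen. Exon lengths and coordinates are from GENCODE mouse release 21 (GRCm38, the same build as mm10), and promoters from RefSeq (GRCm38.p6). The alternatives were other scalings, filters, DESeq2, limma voom, the replicate number as a block, each library left out, and removal of the muscle list or of Rn45s and Lars2. Software was R 4.3.3, edgeR 4.0.16, limma 3.58.1, DESeq2 1.42.0, Python 3.11.15 and matplotlib 3.10.9.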

Additional observations from a re-analysis of the deposited data

How the results depend on the processing

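With 3 libraries per genotype, 0 of the 6 tested axis genes and 0 of 74 pathway genes passed by edgeR, and these counts depended on the tool and the libraries. Over all genes the count of 2 became 0 without scaling factors, 165 without a low-count filter, 882 by DESeq2, 116 by limma voom and 0 to 228 with each library left out. The axis genes called numbered 1 without the filter, 3 by DESeq2, 1 by voom and 0 to 2 with a library left out, and the pathway genes 5, 13, 2 and 0 to 5. The counts above 0 with a library left out arose without WT replicate 1. The cause was not tested. Scaling without factors moved the median of all genes by 0.10 (log2).

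The labels do not say whether the replicate numbers pair the libraries. The correlations of same-numbered deviations were -0.207, -0.137 and -0.053, which cannot show how the libraries were collected. With the replicate block, 0 genes passed in all, 0 of them axis or pathway genes. Of 704 alternative values for 44 named genes, 649 kept their direction and side of the threshold, 41 newly passed and 14 turned sign, in genes near 0. Tnfrsf11a was 0.33 by voom, 0.028 with the block and -0.30 to 0.51 with a library left out. Il34 was 0.039 without scaling factors, 0.054 by voom and -0.37 to 0.20 with a library left out. Tnfsf10 was -0.51 to 0.061 with a library left out, the latter without Piezo1 GOF replicate 1. Clcn7 was 0.075 without scaling factors, 0.028 with upper-quartile factors, 0.037 by voom and -0.12 to 0.12 with a library left out. The mean log2 ratio of Tnfrsf11b to Tnfsf11 differed by 0.29 (prior 0.5), 1.29 (prior 2) and -0.71 to 0.87 with a library left out, so RANKL counts are too few for it.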

Other observations

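Osteoprotegerin belongs to the tumour necrosis factor (TNF) receptor superfamily, which was taken by symbols starting with Tnfrsf or Tnfsf after the data were seen. Without the 3 axis genes it held 28 genes, of which 17 were tested, 11 with positive and 6 with negative log2 fold changes and a median of 0.19 (49.7% of all genes tested were positive), and 0 passed by edgeR. At an unadjusted p under 0.05 there were 0 higher (against 10.2% of all genes) and 3 lower (against 9.59%), and no test of the difference from Tnfrsf11b was made. The lower ones were Tnfrsf19, at 37.2, 45.2 and 35.4 CPM in WT and 18.6, 9.83 and 20.1 CPM in Piezo1 GOF (-1.28 ± 0.29; edgeR adjusted p = 0.104), the death receptor Tnfrsf21, at 61.2, 95.7 and 107 CPM in WT and 39.4, 36.4 and 46.0 CPM in Piezo1 GOF (-1.11 ± 0.25, 0.104), and the TWEAK receptor Tnfrsf12a (-1.07 ± 0.45, 0.240), whose groups overlap. The TNF receptor Tnfrsf1a, at 76.8 to 108 CPM in WT and 89.9 to 96.1 CPM in Piezo1 GOF, had a log2 fold change of 0.10 ± 0.21 (0.829).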
